A study of Mus musculus with 6 samples.

Results

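ZFP57 peaks on the 19 autosomes of 2 hybrid mouse embryonic stem cell (ESC) lines were compared, 9831 peaks in JB1 and 1252 in BJ1. Together they make 11083 of the 123233 peaks in the 4 ZFP57 and KAP1 lists of the study, and the 902 ZFP57 peaks on the sex chromosomes were set aside. Members were every autosomal peak of either ZFP57 list, with no choice by height or function. JB1 came from a JF1 mother (*Mus musculus molossinus*) and a C57BL/6 (B6) father, and BJ1 from the reciprocal cross, so each line carries 1 haploid genome of each strain with the parental origins exchanged. Both lines are male, were grown without feeder cells in medium with serum and LIF, and carried no engineered allele or drug. ZFP57 was precipitated from cross-linked chromatin with the antibody ab45341 and the DNA was sequenced, with 1 library per line. Each line is a single derivation, so that line, cross direction, culture and library cannot be told apart, and no difference below has a replicate check. The lists hold only the start and end of each peak, with no height or read count, so the depth behind them is unknown and the cell type could not be checked against marker genes.

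ZFP57 is a KRAB zinc-finger protein that binds a methylated TGCCGC hexamer and recruits the co-repressor KAP1 (TRIM28), through which histone and DNA methyltransferases are brought to the site. It is best known for keeping imprinting control regions (ICRs) methylated on 1 parental allele after fertilisation, when most of the genome loses methylation. ICRs are CpG-rich stretches, methylated in only the egg or only the sperm, that set which parental copy of the neighbouring genes is expressed.

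Sequences from ICRs are shown because these peaks were present in both lines. As a group, imprinted loci had the wider peak in JB1 less often than other shared peaks did. This does not hold for each locus shown, since edges were identical at *H19* and *Rasgrf1* and the JB1 peak was the wider at *Kcnq1*. Each is the 100-bp stretch of the overlap with the most TGCCGC hexamers, on the forward strand of NCBIM37 (mm9), with the hexamer of either strand in capitals (GCGGCA is TGCCGC on the reverse strand). The stretch near *H19* (chr7:149767653-149767752) is intergenic, upstream of this maternally expressed RNA gene. Those near *Rasgrf1* (chr9:89774617-89774716) and *Meg3* (chr12:110766505-110766604) are also intergenic, and those in *Kcnq1* (chr7:150481563-150481662) and *Trappc9* (chr15:72640133-72640232) are intronic.
H19: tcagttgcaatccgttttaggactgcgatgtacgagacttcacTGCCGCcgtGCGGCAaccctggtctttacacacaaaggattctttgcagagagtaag
Rasgrf1: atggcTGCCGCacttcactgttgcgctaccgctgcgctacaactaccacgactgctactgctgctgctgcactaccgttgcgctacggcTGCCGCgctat
Meg3: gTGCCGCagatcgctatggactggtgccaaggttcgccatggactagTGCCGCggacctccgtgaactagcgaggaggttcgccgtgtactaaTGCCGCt
Kcnq1: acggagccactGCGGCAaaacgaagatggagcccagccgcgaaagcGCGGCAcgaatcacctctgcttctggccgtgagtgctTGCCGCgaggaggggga
Trappc9: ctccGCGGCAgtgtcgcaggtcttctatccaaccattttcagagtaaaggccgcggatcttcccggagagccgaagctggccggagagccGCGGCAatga
Both *H19* hexamers lie 9 bp apart (start to start) on opposite strands, whereas the 3 of *Meg3* share a strand. These letters are those of the reference strain, and the JF1 allele may differ.

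A further set of sequences is shown because it recurs in the JB1 list. Each is TGCCGC with the 12 bases on either side, read on the strand of the hexamer, and the 4 contexts below were the most frequent, the next most frequent, the fifth and the sixth in JB1 peaks.
Context 1: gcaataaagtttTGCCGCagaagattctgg
Context 2: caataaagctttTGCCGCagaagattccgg
Context 5: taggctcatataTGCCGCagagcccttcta
Context 6: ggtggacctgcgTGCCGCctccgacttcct
Context 1 had 1949 identical copies on the reference autosomes and lay in 1080 JB1 peaks and 94 BJ1 peaks. Context 2 had 836 copies and lay in 448 JB1 and 42 BJ1 peaks. Context 5 (590 copies, 203 JB1 peaks) and context 6 (1104 copies, 178 JB1 peaks) lay in no listed BJ1 peak.

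The JB1 list was 7.85 times as long as the BJ1 list and covered 5.29 Mb against 0.691 Mb, a ratio of 7.65. KAP1 ran the other way, with 36174 autosomal peaks in JB1 and 68471 in BJ1 (ratio 0.528). Peaks were of like width, with a median of 450 bp in both lists, and were set on a 150-bp grid with a smallest width of 300 bp. Peaks of that smallest width made up 31.8% of the JB1 list and 43.1% of the BJ1 list. A few very wide peaks weighed on the covered length: 3 BJ1 peaks over 3000 bp held 15.5% of its base pairs, and 41 JB1 peaks held 5.51%.

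JB1 held a large part of the BJ1 peaks, while BJ1 held few of the JB1 peaks. An overlap of at least 1 bp was met by 545 JB1 peaks (5.54%, exact 95% Clopper-Pearson interval 5.10 to 6.01%) and by 543 BJ1 peaks (43.4%, 40.6 to 46.2%). These intervals, here and below, cover counting error only, and peaks of 1 library are not replicates. Width went with being found in both lines. Of JB1 peaks of 300 bp, 0.640% (0.391 to 0.986%) were found in BJ1, against 135 of 751 (15.3 to 20.9%) of those of 750 bp. Of BJ1 peaks, 97 of 539 (14.8 to 21.5%) of those of 300 bp and 77.9% (67.7 to 86.1%) of those of 750 bp were found in JB1. In JB1 the share did not keep rising with width, since 10.5% (5.70 to 17.3%) of JB1 peaks over 1500 bp were found, below the 20.9% (17.1 to 25.2%) of peaks of 900 bp.

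KAP1 and the TGCCGC hexamer marked the shared peaks in both lists, and both were scarce among peaks listed in BJ1 alone. KAP1 of the same line overlapped 96.3% (94.4 to 97.7%) of JB1 peaks found in BJ1 and 97.4% (95.7 to 98.6%) of BJ1 peaks found in JB1. Among peaks not found in the other line the share was 59.3% (58.3 to 60.3%) in JB1 and 22.7% (19.7 to 26.0%) in BJ1, although the BJ1 KAP1 list was the longer. TGCCGC was searched on both strands; the related GGCCGC was kept apart and differs in its initial base, so the 2 hexamers cannot take the same place. TGCCGC lay in 85.0% (81.7 to 87.9%) of shared JB1 peaks, 46.4% (45.4 to 47.4%) of JB1-only peaks and 14.4% (11.9 to 17.2%) of BJ1-only peaks, against 2.76% of all 450-bp windows of the autosomes. Widths differed between these sets, with medians of 750, 450 and 300 bp, and among BJ1-only peaks of at least 600 bp TGCCGC lay in 23.9% and KAP1 in 38.04%. Over all peaks of each set CpG density was 3.23 CpG per 100 bp in shared JB1 peaks, 2.48 in JB1-only peaks, 1.19 in BJ1-only peaks and 0.849 over the windows. Among JB1 peaks with KAP1 it was 3.3 in shared and 3.58 in JB1-only peaks, and JB1-only peaks without KAP1 had 0.647. A peak with neither KAP1 nor TGCCGC was the usual BJ1-only peak, 532 of 709 (75.0%, 71.7 to 78.2%), and made up 40.0% (39.0 to 41.0%) of JB1-only and 3.67% (2.26 to 5.61%) of shared JB1 peaks. In both lists the hexamer was almost limited to peaks with KAP1. Of the 4772 JB1 peaks with TGCCGC, 4713 overlapped JB1 KAP1, and of the 550 such BJ1 peaks, 533 overlapped BJ1 KAP1.

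The number and close spacing of hexamers went with presence in both lines. Peaks with a TGCCGC couple (neighbouring hexamers starting less than 38 bp apart) were found in the other line in 101 of 231 cases in JB1 (43.7%, 37.2 to 50.4%) and in 96 of 97 cases in BJ1 (99.0%, 94.4 to 99.97%). Of all JB1 peaks with the hexamer, 9.70% (8.88 to 10.6%) were found, and of those without it 1.62% (1.29 to 2.01%). The same shares of BJ1 peaks were 81.5% (77.9 to 84.6%) with the hexamer and 13.5% (11.1 to 16.3%) without it. A peak with a couple holds at least 2 hexamers. Of all peaks with 2 or more, 231 of 887 in JB1 and 196 of 216 in BJ1 were found. Spacing apart from hexamer number was not tested. Couples are counted in peaks of any width, and shared peaks were wider (median 750 bp) than JB1-only peaks (450 bp).

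The hexamers of JB1-only peaks lay mostly in sequence that recurs in the genome. The 30-base context was counted over the reference autosomes, and each peak was given the copy number of its most frequent context. A context with 10 or more copies was held by 3691 of the 4256 JB1-only peaks with a whole context (86.7%, 85.7 to 87.7%), by 220 of 461 shared JB1 peaks (47.7%, 43.1 to 52.4%) and by 49 of 97 BJ1-only peaks (50.5%, 40.2 to 60.8%). Single-copy contexts made up 8.55% (7.73 to 9.43%) of the JB1-only and 40.1% (35.6 to 44.8%) of the shared JB1 peaks. Read the other way, 33.7% (29.7 to 37.8%) of JB1 peaks with single-copy contexts were found in BJ1 and 5.63% (4.92 to 6.39%) of those with 10 or more copies. In BJ1 the corresponding shares were 83.0% (77.4 to 87.7%) and 80.7% (75.3 to 85.4%), so copy number did not separate shared from BJ1-only peaks beyond counting error.

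KAP1 peaks of both lines held most copies of the recurring contexts. Of the copies of context 1, 56.7% lay in JB1 ZFP57 peaks and 4.98% in BJ1 ZFP57 peaks, whereas 100% lay in JB1 KAP1 peaks and 99.8% in BJ1 KAP1 peaks. Copies of context 5 lay in KAP1 peaks of either line in 100% of cases, and in ZFP57 peaks in 34.6% of cases in JB1 and 0% in BJ1. Of the copies of context 6, 97.4% lay in JB1 KAP1 and 76.3% in BJ1 KAP1 peaks. Over the 15812 autosomal hexamers whose context had 10 or more copies, 28.7% lay in JB1 and 2.22% in BJ1 ZFP57 peaks, and 74.8% in JB1 and 69.2% in BJ1 KAP1 peaks. Over the 135939 single-copy ones the values were 0.828% and 0.397%, a much smaller gap between the lines. How reads that align to several places were treated is not given in the sources used here, and its part in these values was not tested.

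**Figure D1:**
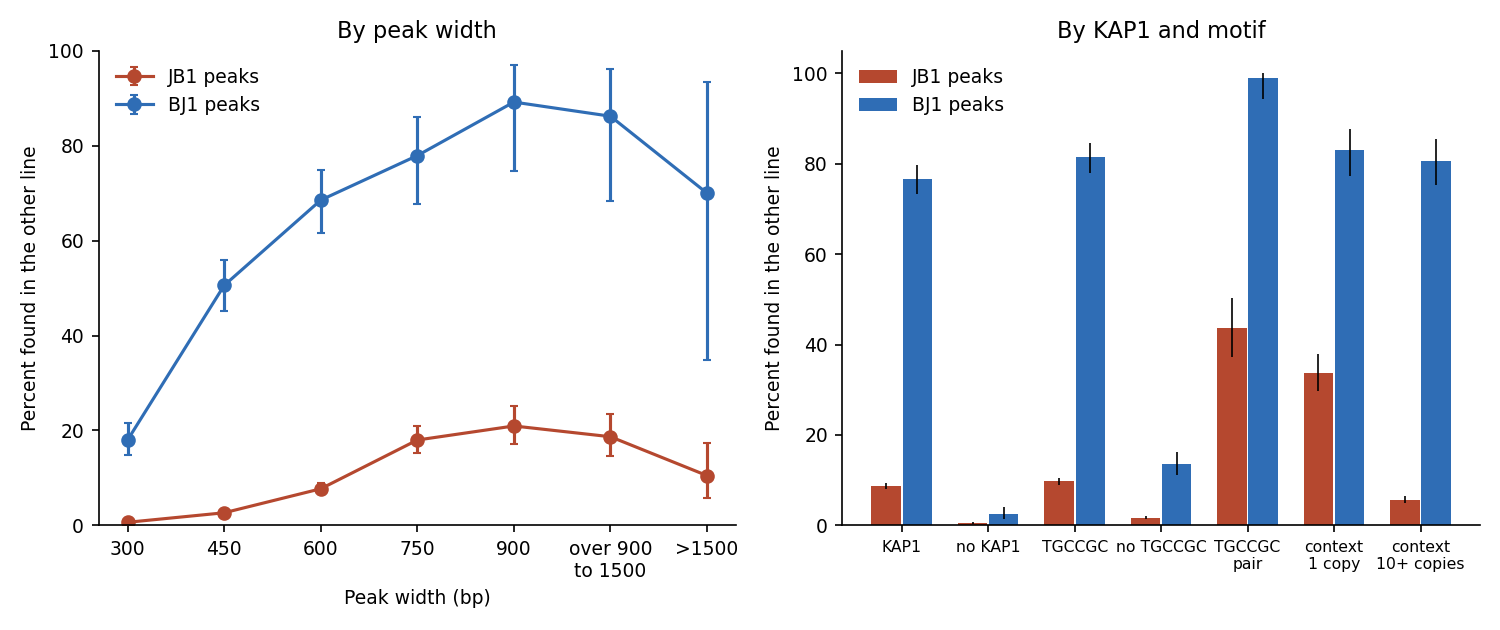
Percent of JB1 (red) and BJ1 (blue) ZFP57 peaks that overlap a peak of the other line, by peak width in bp (left) and by overlap with KAP1 of the same line, the TGCCGC hexamer, couples of it and the copy number of the 30-base context (right). Bars and points are shares of peaks with exact 95% intervals; JB1 peaks with single-copy contexts reach 33.7% against 5.63% for 10 or more copies, while both BJ1 bars stand above 80%.

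Shared peaks lay nearer to genes than the rest of the JB1 list. Promoters (within 1 kb of a protein-coding start) held 1.14% (0.939 to 1.37%) of JB1 and 2.48% (1.69 to 3.50%) of BJ1 peaks, against 2.06% of 450-bp windows. Gene bodies held 23.6% (22.7 to 24.4%) of JB1 and 34.5% (31.9 to 37.2%) of BJ1 peaks, against 38.5% of windows. The remaining 75.3% (74.4 to 76.1%) of JB1 and 63.0% (60.3 to 65.7%) of BJ1 peaks were intergenic, against 59.4% of windows. The JB1 list was thus below the windows at promoters and in gene bodies, and the intervals of the lists did not overlap in any of the 3 classes. With only peaks of at least 600 bp the promoter shares were 1.78% (1.37 to 2.28%) in JB1 and 4.74% (2.78 to 7.47%) in BJ1, and the JB1 interval then included the 2.06% of the 450-bp windows. Among shared JB1 peaks 3.67% (2.26 to 5.61%) were at promoters and 35.4% (31.4 to 39.6%) in gene bodies. BJ1-only peaks were at promoters in 1.69% (0.878 to 2.94%) and in gene bodies in 33.7% (30.2 to 37.3%) of cases, and JB1-only peaks in 0.991% (0.799 to 1.21%) and 22.9% (22.0 to 23.7%). Of JB1 promoter peaks 17.9% (11.3 to 26.2%) were found in BJ1, against 4.49% (4.03 to 4.98%) of intergenic ones.

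The median distance from a peak's centre to the nearest protein-coding start was 81.4 kb (77.6 to 85.2) in JB1 and 54.1 kb (47.3 to 61.6) in BJ1, with 67.2 kb over all 150-bp windows. With only peaks of at least 600 bp both medians lay below that of the windows, at 63.2 kb in JB1 and 31.8 kb in BJ1. With starts of all gene types the medians were 42.8 kb in JB1 and 29.9 kb in BJ1, and no window value was computed for such starts. The shorter distances lay with the shared peaks, which had a median of 35.3 kb (29.3 to 45.0, JB1 coordinates), while JB1-only peaks had 85.6 kb (81.8 to 89.2) and BJ1-only peaks 78.1 kb (65.0 to 94.4). Copy number of the context went with distance too. JB1 peaks with single-copy contexts had a median of 45.2 kb and were 55.9% (51.7 to 60.1%) intergenic, and those with 10 or more copies had a median of 89.1 kb and were 82.4% (81.1 to 83.5%) intergenic. Upstream of the nearest start lay 50.3% of JB1 and 45.2% of BJ1 peaks.

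**Figure D2:**
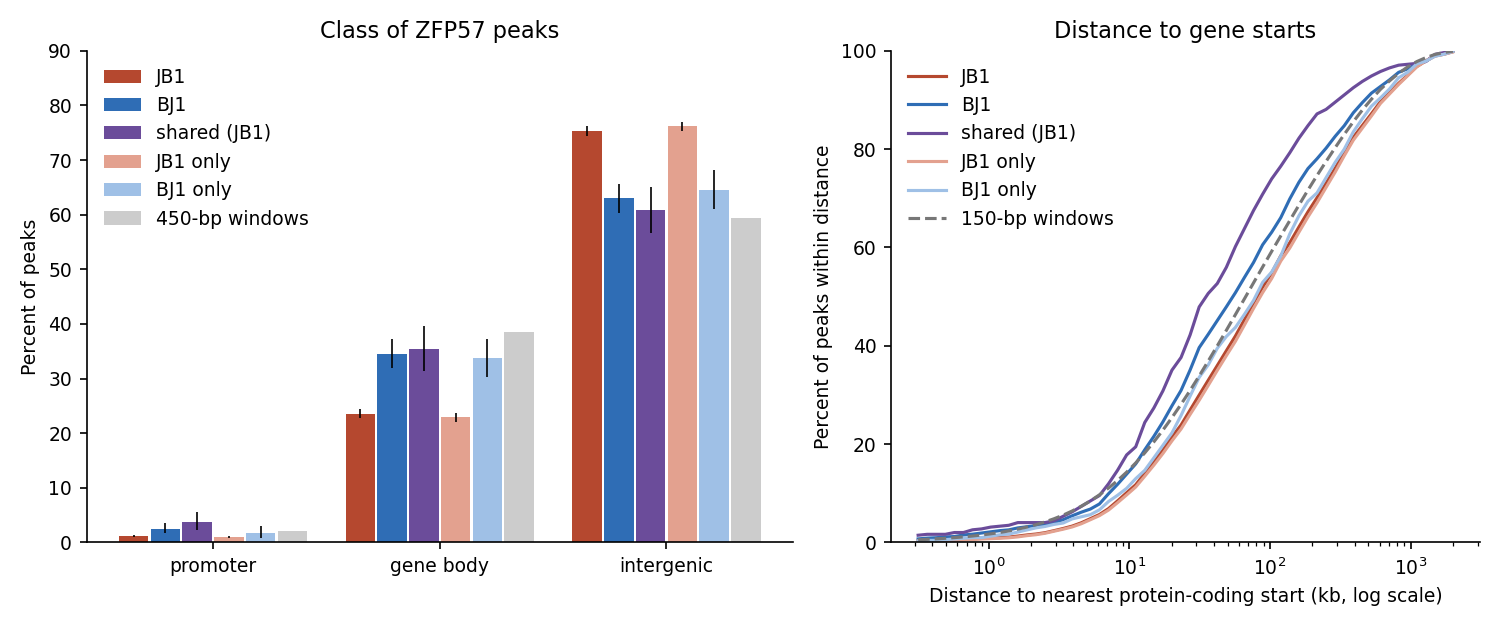
Left, percent of peaks at promoters, in gene bodies and in intergenic sequence for each list and for shared and line-only peaks, with exact 95% intervals, beside all 450-bp windows (grey). Right, cumulative percent of peaks within a distance (kb, log scale) of the nearest protein-coding start. The shared curve has the shortest median (35.3 kb), though within 5 kb it holds 7.89% of peaks against 8.02% of windows. The JB1 curve lies below that of the windows (67.2 kb, dashed).

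Density varied among chromosomes by about the same factor in both lists, but the extremes differed. JB1 had 4.11 peaks per Mb over all autosomes, from 3.02 on chromosome 11 to 6.42 on chromosome 14. BJ1 had 0.523 per Mb, from 0.358 on chromosome 15 to 0.846 on chromosome 1. The JB1 to BJ1 ratio was highest on chromosomes 14 (10.3), 15 (10.2) and 3 (10.2) and lowest on chromosomes 1 (5.95), 17 (6.47) and 8 (6.51). With only peaks of at least 600 bp the ratio was 22.4 on chromosome 3, 19.6 on chromosome 14 and 13 on chromosome 15, and 8.40, 5.61 and 9 on chromosomes 1, 17 and 8, so the order within both groups of chromosomes changed with peak width. The KAP1 ratio was more even, from 0.452 to 0.588.

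Chromosomes 1 and 14 in JB1, and chromosome 1 in BJ1, stood out in the density of peaks without KAP1. In JB1, peaks with KAP1 ran from 2.09 per Mb (chromosome 11) to 2.94 (chromosome 14) and were unremarkable on chromosome 1 (2.53). Peaks without KAP1 reached 3.48 per Mb on chromosome 14 and 2.50 on chromosome 1, while the other 17 autosomes lay between 0.935 (chromosome 11) and 1.797 (chromosome 3). In BJ1, peaks without KAP1 reached 0.507 per Mb on chromosome 1, and the next highest values were 0.304 on chromosome 14 and 0.284 on chromosome 16. As a share of BJ1 peaks, those without KAP1 were 65.2% on chromosome 3 and 59.9% on chromosome 1. Of the 162 BJ1 peaks on chromosome 1, 112 were BJ1-only (0.585 per Mb, against 0.271 on the other autosomes), while shared BJ1 peaks were at 0.261 per Mb, close to the 0.224 elsewhere. The 112 peaks were spread along the chromosome, with 22, 27, 37 and 26 in its 4 parts of equal length. They held KAP1 in 13.4% (7.69 to 21.1%) and TGCCGC in 9.82% (5.01 to 16.9%) of cases, against 24.5% (21.1 to 28.1%) and 15.2% (12.5 to 18.4%) of BJ1-only peaks elsewhere. Their median distance to a start was 138 kb, against 67.6 kb.

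**Figure D3:**
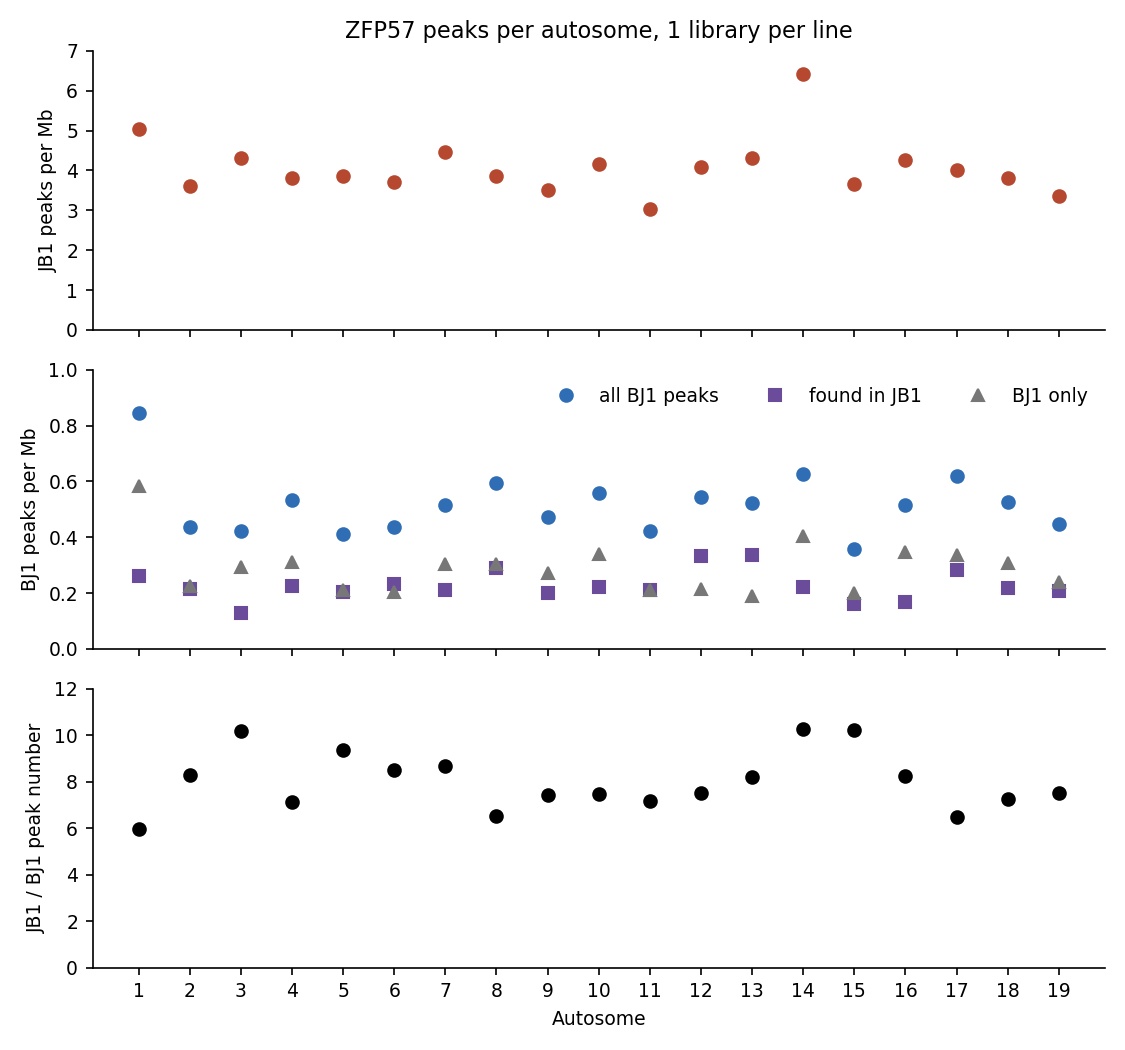
ZFP57 peaks per Mb of each autosome in JB1 (top) and BJ1 (middle, split into peaks found in JB1 and BJ1-only peaks), and the ratio of peak numbers (bottom); each point is 1 chromosome of 1 library. Chromosome 14 is highest in JB1 (6.42 per Mb) and chromosome 1 in BJ1 (0.846 per Mb), where BJ1-only peaks reach 0.585 per Mb.

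JB1 peaks came in close company far more often than BJ1 peaks. The gap from the end of a peak to the start of the next had a median of 114 kb (109 to 120) in JB1 and 1139 kb (1061 to 1247) in BJ1. The mean gaps were 245 kb and 1911 kb, so that the median was 0.465 of the mean in JB1 and 0.596 in BJ1. Gaps under 10 kb made up 22.3% (21.5 to 23.1%) of 9812 JB1 gaps and 2.35% (1.58 to 3.36%) of 1233 BJ1 gaps. A denser list has more short gaps, and no density-matched value was computed. Taking peaks linked by such gaps as a run, 61.8% of JB1 peaks stood alone, 3642 lay in 1549 runs of 2 to 4 and 115 in 22 runs of 5 or more. In BJ1 95.4% stood alone, and its largest run was 3 peaks within *Ezr*, which encodes the membrane to cytoskeleton linker ezrin, all of them shared.

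The short JB1 gaps were unevenly spread over lengths. There were 591 gaps under 1 kb, 504 from 1 to 2 kb and 185 from 2 to 3 kb, then 240 and 243 from 3 to 4 and 4 to 5 kb, 157 from 5 to 6 kb, 141 from 6 to 7 kb and 41 from 7 to 8 kb. KAP1 lay on both neighbours of 84.5% of gaps under 10 kb, against 30.9% of gaps over 100 kb. The neighbours held the same 30-base context in 58.9% of gaps of 6 to 7 kb. The share was 21.4, 27.6, 34.6, 15.2 and 25.5% in the 5 bins from 1 to 6 kb, and 2.20% of gaps under 1 kb, 4.88% of gaps of 7 to 8 kb and 1.33% of gaps over 100 kb held it. In BJ1 there were 29 gaps under 10 kb, and the 5 of 6 to 7 kb had KAP1 and the same context at both ends. JB1 peaks in runs of 2 to 4 held KAP1 in 87.3% (86.2 to 88.4%) and TGCCGC in 69.9% (68.4 to 71.4%) of cases, against 45.5% (44.2 to 46.7%) and 35.6% (34.4 to 36.8%) of lone peaks. In JB1, 5.98% (5.39 to 6.60%) of lone peaks, 4.91% (4.24 to 5.67%) of peaks in runs of 2 to 4 and 3 of 115 peaks in runs of 5 or more (2.61%, 0.541 to 7.43%) were found in BJ1, with overlapping intervals. In BJ1 40 of 57 peaks in runs (70.2%, 56.6 to 81.6%) and 42.1% (39.3 to 44.9%) of lone peaks were found in JB1. Line-only peaks were seldom near misses, since 12 of 709 BJ1-only and 37 of 9286 JB1-only peaks lay within 1 kb of a peak of the other line.

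**Figure D4:**
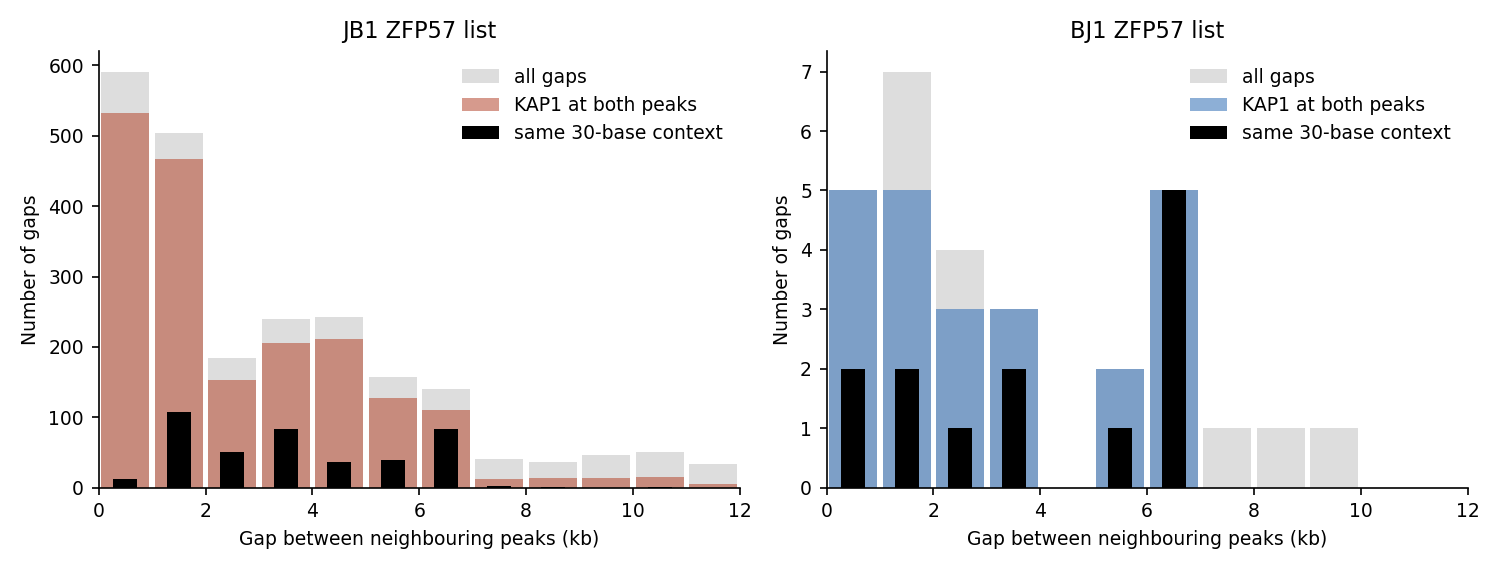
Number of gaps between neighbouring ZFP57 peaks in 1-kb bins up to 12 kb in JB1 (left) and BJ1 (right; the axes differ); grey, all gaps; coloured, gaps with KAP1 of the same line at both peaks; black, gaps whose 2 peaks hold the same 30-base TGCCGC context. JB1 gaps fall from 141 at 6 to 7 kb to 41 at 7 to 8 kb.

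At the 547 overlapping pairs the lists placed the peaks within a grid step or so of each other, and the JB1 peak was usually the wider. Both edges were identical in 110 pairs (20.1%, 16.8 to 23.7%), and both lay within 150 bp in 400 (73.1%, 69.2 to 76.8%). The JB1 peak was wider in 357 pairs (65.3%, 61.1 to 69.3%), the BJ1 peak in 57 (10.4%, 7.99 to 13.3%), and 133 had equal widths. The median width was 750 bp in JB1 and 450 bp in BJ1, and 449 BJ1 peaks (82.1%, 78.6 to 85.2%) lay wholly within their JB1 partner. Both edges moved inward more often than outward, the end more so than the start. The BJ1 start lay inward of the JB1 start in 238 pairs and outward in 58, the end inward in 280 and outward in 46, with median shifts of 0 bp at the start and -150 bp at the end, and centres were within 75 bp in 418 pairs (76.4%, 72.6 to 79.9%). The JB1 peak was the wider of the pair in 28.8% of pairs where it measured 300 to 450 bp, 59.1% at 600 bp, 80.9% at 750 bp, 75.3% at 900 bp and 89.0% at 1050 bp and over. This comparison ranks pairs by the width being compared and is given as a description.

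The largest shift was at *Dux*, a homeobox gene of the cleavage-stage embryo, where the JB1 peak spanned 28800 bp (chr10:57669451-57698250) and the BJ1 peak 15450 bp with the same end and a start moved by 13350 bp. The next was an intergenic site on chromosome 13 (chr13:71157001-71159850), where 1 JB1 peak of 2850 bp faced 2 BJ1 peaks of 750 and 900 bp. Wide pairs were not always shifted. The 1950-bp pair in an intron of *Ccdc21* (chr4:133715401-133717350) had identical edges, and that over the coding exon of *Zfp11* differed by 150 bp at the end only.

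Peaks at imprinted loci departed from this rule. Pairs within 35 kb of the start of, or within, a listed imprinted gene numbered 23. The JB1 peak was wider in 6 of them (26.1%, 10.2 to 48.4%) and the BJ1 peak in 11 (47.8%, 26.8 to 69.4%), against 351 (67.0%, 62.8 to 71.0%) and 46 (8.78%, 6.50 to 11.5%) of the other 524 pairs. The intervals of the groups did not overlap in either direction. Median widths were 900 bp in JB1 and 1050 bp in BJ1 at these loci, and 750 and 450 bp at the other pairs. The imprinted pairs were denser in hexamers, with a median of 4 TGCCGC per JB1 peak against 1, and a couple in 15 of 23 (65.2%, 42.7 to 83.6%) against 16.4% (13.3 to 19.9%). KAP1 of the same line was present on both sides in 23 of 23 pairs, and in 502 of the other 524 (95.8%). At *Meg3* and *Peg3* 1 BJ1 peak is counted against 2 JB1 peaks, which gives 4 of the 11 pairs with a wider BJ1 peak. Over the 19 pairs of exactly 1 peak in each line, BJ1 was wider in 7 (36.8%, 16.3 to 61.6%) and JB1 in 6 (31.6%, 12.6 to 56.6%), with a median of 900 bp in both lines. Over the other 516 such pairs BJ1 was wider in 8.72% (6.43 to 11.5%) and JB1 in 67.1% (62.8 to 71.1%). The listed genes are those known as ZFP57 targets, so their presence is not an independent result.

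Edges were identical at both *H19* peaks (chr7:149765701-149766450 and chr7:149767501-149768250, 750 bp each), at *Rasgrf1*, a guanine nucleotide exchange factor gene (chr9:89774251-89775000, 750 bp, 6 TGCCGC), at *Plagl1*, a zinc-finger transcription factor gene (chr10:12810301-12811350, 1050 bp) and at *Cdh15*, which encodes M-cadherin (chr8:125388751-125389650, 900 bp). The first 3 of these peaks are intergenic, that of *Plagl1* overlaps the promoter and a UTR, and that of *Cdh15* a coding exon. BJ1 was wider at *Nnat* (1350 bp in JB1, 1500 in BJ1), a neuronal proteolipid gene, at *Gnas*, which encodes the stimulatory G-protein alpha subunit (600 and 900 bp, in a UTR), and at *Grb10*, an adaptor of insulin signalling (600 and 750 bp). The same held at *Peg10* (600 and 750 bp), a retrotransposon-derived gene, at *Gpr1* (900 and 1050 bp), at *Impact* (1050 and 1200 bp) and at *Trappc9* (900 and 1050 bp), each by at most 1 grid step at an edge. The 2 loci with a joined peak were *Meg3*, a maternally expressed long RNA, and *Peg3*, a zinc-finger gene. At *Meg3* 1 BJ1 peak of 1650 bp overlapped 2 abutting JB1 peaks of 900 bp, whose joint span was 1800 bp. At *Peg3* 1 BJ1 peak of 1500 bp overlapped JB1 peaks of 750 and 600 bp with a joint span of 1500 bp. JB1 was wider at *Igf2r*/*Airn*, a growth factor receptor gene and its antisense RNA (1650 and 1050 bp), at *Mest* (2250 and 1950 bp), *Snrpn* (1650 and 1500 bp), *Nap1l5* (900 and 750 bp), *Zrsr1* (1200 and 1050 bp) and the intronic *Kcnq1* peak (750 and 600 bp).

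**Figure D5:**
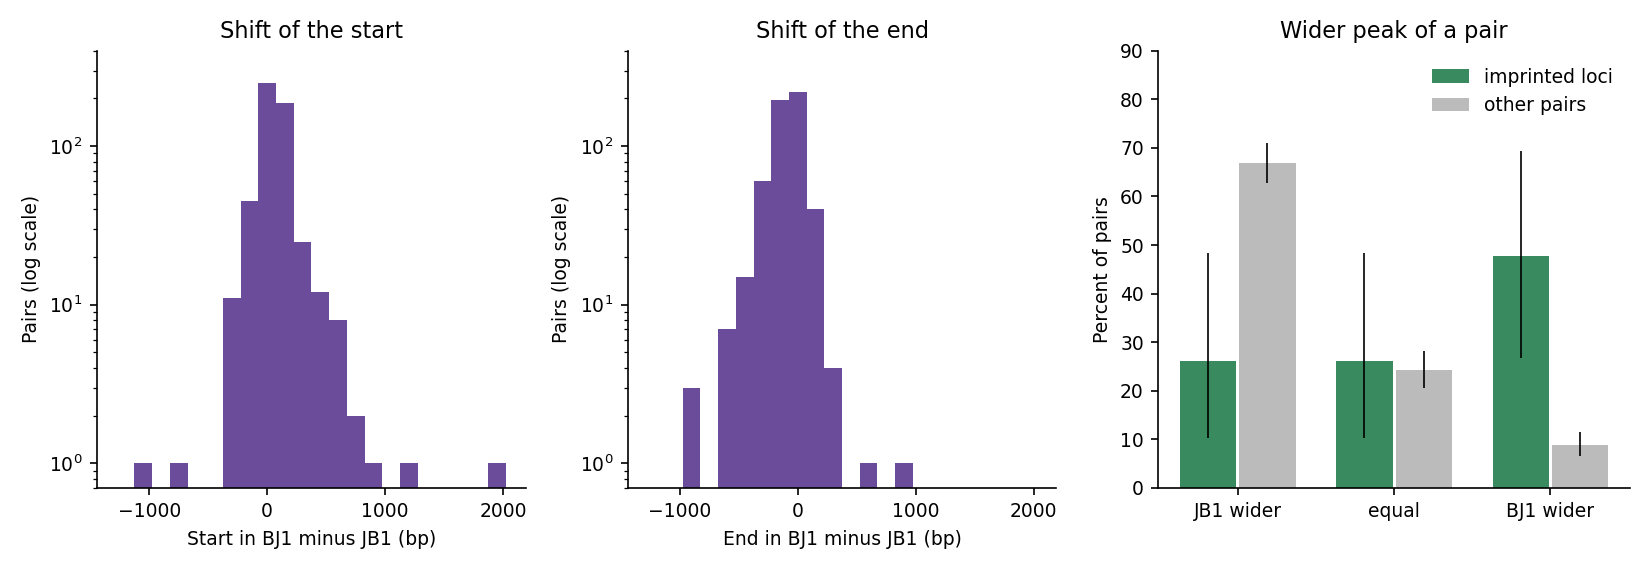
Shift of the start and of the end at overlapping pairs, BJ1 minus JB1 in bp (pairs on a log scale; the *Dux* start shift of 13350 bp lies outside the axis), and the percent of pairs in which the JB1 peak was wider, equal or narrower, for 23 pairs at imprinted loci and 524 others, with exact 95% intervals. BJ1 was wider in 47.8% of imprinted pairs and 8.78% of the others.

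Most of the listed imprinted genes had a peak found in both lines. These genes were listed as known ZFP57 targets, so their excess over all genes is not an independent result. Over 21281 autosomal protein-coding genes, 7.45% had a JB1 peak at the gene or its promoter, 2.08% a BJ1 peak and 0.991% a shared peak. Of 26 imprinted genes the counts were 21, 20 and 20, and 4 of the 26 had a JB1-only peak and none a BJ1-only peak, against 6.71% and 1.15% of all genes. *Inpp5f* had a JB1 peak and no BJ1 peak at the gene, the shared peak of *Rasgrf1* lay outside the gene, and *Zdbf2*, *Mcts2*, *H13* and *Slc38a4* had no ZFP57 peak in either line within the gene or 35 kb of its start. Genes named Zfp (353, zinc-finger proteins) had a JB1 peak in 29, a BJ1 peak in 13 and a shared peak in 8, namely *Zfp385b*, *Zfp462*, *Zfp11*, *Zfp787*, *Zfp553*, *Zfp629*, *Zfp385c* and *Zfp13*. Of 17 pluripotency genes none had a peak in either list. Of 18 genes of the ZFP57-KAP1 and DNA methylation machinery, 1 had a JB1 peak, *Zfp445*, whose product also binds ICRs, and none a BJ1 peak. Among 10 germline genes that promoter methylation silences, JB1 peaks lay in *Mael* and *Sycp1* and a BJ1 peak in *Ddx4*, none shared and none at a promoter. Olfactory receptor genes had a JB1 peak in 17 of 1106 and a BJ1 peak in 2, none shared. At their promoters, where gene length plays no part, 15 of the 1106 (1.36%) had a JB1 peak, against 0.536% of all genes. A BJ1 peak lay at 1 of these promoters (0.0904%), against 0.155% of all genes. Gene length differs between the lists (median 41.2 kb for imprinted, 14.7 kb for Zfp and 0.961 kb for olfactory receptor genes, against 15.6 kb over all), and longer genes can hold more peaks.

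Many of the promoter peaks found in both lines were those of imprinted genes. Of 20 shared JB1 promoter peaks, 9 belonged to the imprinted loci above (*Nnat*, *Zrsr1*, *Plagl1*, *Impact*, *Nap1l5*, *Peg10*, 2 at *Peg3* and 1 at *Gnas*). The last overlapped the 3′ end of *Gnas*, ran past it and was assigned to the promoter of *AF085738*. The others included *Fkbp6*, an immunophilin gene needed in spermatogenesis (1050 and 900 bp), *Usp14*, a proteasome-associated deubiquitinase gene (750 and 450 bp), *Fscn2* (600 and 450 bp) and *Krtap4-16*, a keratin-associated gene whose 750-bp JB1 peak held 14 TGCCGC. The 12 promoter peaks of BJ1 alone, named after their values were seen, were at *Olfr1126*, *Strc*, *Amtn*, *Myo1h*, *1700049G17Rik*, *Myod1*, *Gm15319*, *Dpep3*, *Cacng1*, *Vsnl1*, *Vmn2r117* and *Gstp2*. BJ1 KAP1 overlapped those at *Strc* and *Dpep3* and none of the other 10. The peak at *Myod1*, the myogenic regulator (chr7:53631901-53632650, 750 bp), held no TGCCGC. The *Dpep3* peak (chr8:108502951-108503400) lay 150 bp beyond the end of a shared peak at the same promoter.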

How the data were processed

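ZFP57 and KAP1 ChIP-seq peaks of the hybrid ESC lines JB1 and BJ1 were taken as deposited, 1 library per line and antibody. The authors trimmed the reads (CASAVA 1.8.2, Trim Galore), aligned them to mm9 with Bowtie (0.12.7 per the submitters' processing notes, with SAMtools 0.1.18 and bedtools 2.14.3-1) and called peaks per library with MACS at a fixed P-value cut-off. The deposited lists give positions only, on a 150-bp grid, so depth is unknown and no list holds a score. The input libraries and the allele-specific calls of the study were not used here.

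Peaks on autosomes were compared in Python 3.11.15 (numpy 2.4.6, pandas 2.3.3, scipy 1.17.1; figures matplotlib 3.10.9). Overlap required 1 bp. Promoters lay within 1000 bp of a protein-coding start of GENCODE M1 (NCBIM37), and any other overlap with a protein-coding gene counted as gene body. Sequence was read from NCBIM37. Intervals are exact Clopper-Pearson at 95% (order statistics for medians). With 1 library per line no test was run. The reference carries no repeat mask, so the repeat share that was planned was replaced by copy counts of 30-base contexts, a measure chosen after seeing the data, as were the imprinted-pair and KAP1-by-chromosome splits. Functions were tested on simulated peaks with known overlaps, classes, gaps and motifs.

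Named were the peaks nearest imprinted genes within 35 kb, the 10 widest and up to 30 promoter shared pairs, the 5 widest line-only peaks, the 5 largest edge shifts, the 3 highest and 3 lowest chromosomes by ratio, the 5 runs with the most peaks, and listed genes with a shared peak. *Kcnq1ot1* and *Peg13* were not analysed here. The members, lists and measures were chosen with earlier results of these data known. Alternatives varied the minimum width, merging, overlap, promoter window, gene types, motif and pairs used.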

Additional observations from a re-analysis of the deposited data

Results flagged for a closer look

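ZFP57 peaks on the sex chromosomes were outside every comparison above. Chromosome X held 808 JB1 peaks and 57 BJ1 peaks, a ratio of 14.2, whereas the highest ratio of an autosome was 10.3. The KAP1 ratio on X was 0.616, above its autosomal range of 0.452 to 0.588. Chromosome Y held 28 JB1 and 9 BJ1 peaks. With 1 library per line these differences have no replicate check, and the alignability of these chromosomes was not tested.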

How the results depend on the processing

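No paired analysis was possible because each line has 1 library and no result comes from a test. Of 117 recomputed values over 36 results, 7 equal the reported BJ1 value by construction, since BJ1 has no run of 5 or more peaks to leave out. Of the other 110, 66 stayed within the interval of the reported value (counts within 1.5 times) and 44 moved; no order between the lines turned in overlap (7 of 7 settings), promoters (6 of 6), gene bodies (6 of 6) or intergenic share (5 of 5). Alternatives without chromosome 1 or without runs of 5 or more peaks, and imprinted pairs of exactly 1 peak each, were chosen after seeing the data; beside the 7 values equal by construction, 25 of these 26 stayed and the exception was KAP1 at JB1-only peaks, 60.6% without chromosome 1.

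With only peaks of at least 600 bp, the lists held 3532 JB1 and 359 BJ1 peaks, and 7.16% of JB1 and 70.2% of BJ1 peaks were found in the other line. The ratio rose to 22.4 on chromosome 3 and 19.6 on chromosome 14. Promoter shares were 1.78% and 4.74%, the JB1 gene-body share 22.4% and the BJ1 intergenic share 58.2%. Median distances were 63.2 (JB1, now below the 67.2 kb of all windows) and 31.8 kb (BJ1), median gaps 307.2 and 3224 kb, and 18.8% of JB1 gaps were under 10 kb. For the hexamer and KAP1 shares, peaks kept the shared or line-only status they had in the full lists. TGCCGC lay in 66.9% of JB1-only, 90.3% of shared BJ1 and 23.9% of BJ1-only peaks. KAP1 lay in 98.6% of shared JB1, 80.5% of JB1-only and 38.04% of BJ1-only peaks. Identical edges rose to 28.7%, edges within 150 bp to 81.1%, and JB1 was wider in 54.3% of pairs.

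A 2500-bp promoter window gave 2.33% (JB1) and 4.07% (BJ1). Genes of all types gave promoter shares of 2.46% and 4.23%, a JB1 gene-body share of 25.2%, intergenic shares of 72.4% and 60.1%, and median distances of 42.8 and 29.9 kb. Merging peaks less than 500 bp apart left 18.7% of JB1 gaps under 10 kb with a median of 128.6 kb, and gaps under 50 kb were 35.5% (JB1) and 5.92% (BJ1). TGCCGC or GGCCGC lay in 93.8% of shared JB1, 50.9% of JB1-only and 91.2% of shared BJ1 peaks, and the central 300 bp held TGCCGC in 76.9%, 40.1% and 75.0%. The lists hold no depth, so whether a weaker library gave the shorter BJ1 list was not tested.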

Other observations

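The JB1 run with the most peaks held 7 over 27.2 kb of chromosome 7 (chr7:67002751-67029900), covering 21.2 kb, beside the imprinted gene *Snrpn* at a distance of 97488 bp. The only annotated genes it overlapped were small nucleolar RNA genes, none of its peaks overlapped JB1 KAP1 or held TGCCGC, and none was found in BJ1. Of the 22 JB1 runs of 5 or more peaks, 3 held 6 peaks each, over 17.25, 9 and 6.9 kb of chromosomes 5, 14 and 19, and all others held 5. The runs of 6 had KAP1 at 6, 6 and 4 peaks, and none of their peaks was found in BJ1.

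None of the 5 widest JB1-only peaks overlapped JB1 KAP1, whereas 4 of the 5 widest BJ1-only peaks overlapped BJ1 KAP1. JB1-only peaks of 19650 and 14550 bp lay 100 and 141 kb from the start of *Sp110* on chromosome 1, with no JB1 KAP1 and no TGCCGC. The widest BJ1-only peak (58650 bp) spanned *Gm15319* on chromosome 8 without BJ1 KAP1 and held 2 TGCCGC, and the next (33000 bp, chr8:19760851-19793850, with BJ1 KAP1 and 5 TGCCGC) began at the base after a 17400-bp JB1-only peak ended (chr8:19743451-19760850). Those of 3000 bp in an intron of *Tcte2*, 1350 bp over an exon of *Neat1*, the long RNA of paraspeckles, and 1200 bp over a coding exon of *Repin1* (3 TGCCGC) overlapped BJ1 KAP1 too.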
